A study of Mus musculus with 4 samples.

Results

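The mRNAs of 10 amino acid transporters of the plasma membrane were examined in cultured mouse female germline stem cells (FGSCs) after knockdown of *Nat10*. The set was chosen by gene symbol, with earlier results of these data known, as transporters of which several are known targets of the transcription factor ATF4. It comprises *Slc3a2*, *Slc7a5*, *Slc7a6*, *Slc7a11*, *Slc7a1*, *Slc1a4*, *Slc1a5*, *Slc38a1*, *Slc38a2* and *Slc6a9*. All 10 were found among the 53465 genes of the expression table. NAT10 is the acetyltransferase that writes N4-acetylcytidine (ac4C) on RNA, and the comparison asks how the transcriptome differs once its mRNA is lowered. One group carried a control shRNA (shNC) and the other an shRNA against *Nat10* (shNAT10), both delivered by lentivirus with drug selection, and each group had 2 libraries of Long RNA-seq described as biological replicates. The tissue of origin is given as ovary, the cell line as FGSCs and the cell type as germ stem cells, and which *Nat10* shRNA was used is not stated in the sources used here. Expression is given as FPKM, in which fragments are divided by exon length and by a divisor for each library. It is per length and so can be compared between genes. Below, controls are the libraries shNC-1 and shNC-2, knockdown means shNAT10-1 and shNAT10-2, and the values of a group are given in the order of these numbers. Recovery of fragments from the FPKM gave totals on genes of 14900422 and 13026747 for the controls and 11055849 and 13768904 after knockdown. The divisors were not these totals. They were 1.17e+07 and 1.19e+07 for the controls and 1.26e+07 and 1.53e+07 after knockdown, so the deposited values carry another scaling between libraries.

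Amino acids cross the plasma membrane on carriers that differ in what they move and in what drives them. SLC3A2, the heavy chain known as 4F2hc or CD98, carries no substrate itself but brings light chains of the SLC7 family to the cell surface, where SLC7A5 imports leucine and other large neutral amino acids and SLC7A11 imports cystine in exchange for glutamate. SLC7A1 takes up arginine and lysine, SLC1A4 and SLC1A5 exchange small neutral amino acids and glutamine, SLC38A1 and SLC38A2 take up glutamine and alanine together with sodium, and SLC6A9 takes up glycine. When amino acids run short, the kinase GCN2 phosphorylates the initiation factor eIF2, translation of *Atf4* mRNA rises, and ATF4 binds C/EBP-ATF composite elements of many transporter and amino acid synthesis genes.

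*Nat10* itself, at 103721256 to 103761270 on chromosome 2 of GRCm38, checks the labels. It measured 7.79 and 5.42 FPKM in controls and 2.95 and 3.04 FPKM after knockdown, so the shNAT10 mean was 45.4% of the shNC mean. The log2 fold change was −1.09 ± 0.21 (SE, n = 2 per group), which passed the threshold used throughout, a fold change over 1.2 with an unadjusted p of at most 0.05 by limma on log2(FPKM + 0.1). Its adjusted p was 0.123, and the call was lost without shNAT10-1 (−1.07) or shNAT10-2 (−1.11). Scaled instead to the same total of recovered fragments per library, the log2 fold change was −0.69 and still called.

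The labelled cell type was checked against marker genes. Of 14 female germline markers, 6 (*Dazl*, *Dppa3*, *Figla*, *Pou5f1*, *Tfap2c* and *Zp3*) were listed at 0 in all 4 libraries, and *Ddx4* was above 0 in shNAT10-1 alone, at 0.0529 FPKM. *Ifitm3*, which many cell types express, was the most abundant gene of that list, at 9.29 and 22.2 FPKM in controls and 27.1 and 33.6 FPKM after knockdown, followed by *Zbtb16* and *Gfra1*, which stayed under 0.6 FPKM. Limma called none of the 4 markers tested on that list, where it called 7.83% of all genes lower and 8.41% higher. Limma-voom called *Ifitm3* higher, with an adjusted p of 0.00368. At an adjusted p under 0.05 it called 3.64% of all genes lower and 4.23% higher. The defining markers of germ cells were thus at or near 0 in these 4 libraries, and the cells are called FGSCs below only as the labels do. The paper assayed germline markers in its FGSCs by RT-PCR and immunofluorescence, which were not examined here.

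Markers of other cell types were present, and some of them moved with the group. All 8 pan-leukocyte markers were expressed, led by *Cd53*, and their summed level was 481 and 530 FPKM in controls against 399 and 417 FPKM after knockdown. Over the 20116 genes tested, 7.83% were called lower in shNAT10 and 8.41% higher on the deposited scaling. Of these 8, *Cd53*, *Lcp1*, *Itgb2* and *Laptm5* were called lower and none higher, while *Ptprc*, the gene of CD45, was at 15.5 and 15.4 FPKM in controls and at 15.3 FPKM in either knockdown library. Of 14 mast cell markers, 8 of which were tested, *Cpa3* was the most abundant at a mean of 262 FPKM, *Srgn*, *Gata2*, *Kit* and *Mitf* were called lower, *Ms4a2* and *Gata1* higher, and *Fcer1a*, *Mrgprb2* and *Tpsb2* were at 0. The summed level of that list was 431 and 459 FPKM in controls and 422 and 409 FPKM after knockdown. Among 8 macrophage markers, 4 of them tested, *Adgre1* was the most abundant and was called lower, *Lyz2* was called higher, *C1qa* and *C1qb* were at 0, and the sum was 48.1 and 52.9 FPKM in controls and 38.1 and 43.3 FPKM after knockdown. Of 9 fibroblast markers, 8 of them tested, *Pdgfra*, *Thy1* and *Col3a1* were called higher and *Fn1* lower, with *Dcn* the most abundant, *Lum* at 0, and a sum of 59.2 and 52.6 FPKM in controls and 68.9 and 59.6 FPKM after knockdown. Of 9 granulosa cell markers 5 were tested, of which limma called 0. Limma-voom, at an adjusted p under 0.05, called *Fst* higher, where it called 3.64% of all genes lower and 4.23% higher. *Foxl2* and *Fshr* were at 0, and the list, led by *Fst*, summed to 7.06 and 4.62 FPKM in controls and 9.09 and 9.22 FPKM after knockdown. Of the 16 marker calls on these lists, that of *Thy1* held whichever library was left out, and those of *Gata1* and *Fn1* were lost in every such fit. Scaled instead to the same total of recovered fragments per library, *Lcp1*, *Gata2*, *Mitf*, *Adgre1* and *Fn1*, 5 of the 10 markers called lower, had estimates above 0. At an adjusted p under 0.05, limma-voom called 4 of the pan-leukocyte markers lower and 0 higher, and 3 of the mast cell markers lower and 1 higher. It called 3 of the fibroblast markers higher and 0 lower, and 1 of the macrophage markers lower and 0 higher. The part of these markers in the results on transporters was not tested. In bulk RNA fewer cells of a type and less RNA per cell cannot be told apart.

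All 10 transporters were well expressed, each with a mean of more than 1 FPKM over the 4 libraries, so all passed the filter on low values. *Slc3a2* stood highest, with 46.1 to 87.3 FPKM, above 97.0% of the genes tested. *Slc38a2* (29.5 to 35.5 FPKM) came next and *Slc7a5* (14.0 to 25.8 FPKM) after it, and each of these 3 exceeded the following gene in 4 of 4 libraries. *Slc1a4* and *Slc1a5*, with means of 13.3 and 12.5 FPKM, did not differ beyond their spread, since each was the higher in 2 libraries. *Slc7a11* and *Slc38a1* followed with means of 9.82 and 9.53 FPKM and also overlapped. *Slc7a1*, *Slc7a6* and *Slc6a9* were lowest, with means of 5.11, 4.74 and 4.46 FPKM over all libraries and overlapping ranges. The order of the first 2 turned with the group, since *Slc7a1* was above *Slc7a6* in both controls and below it in both knockdown libraries.

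**Figure D1:**
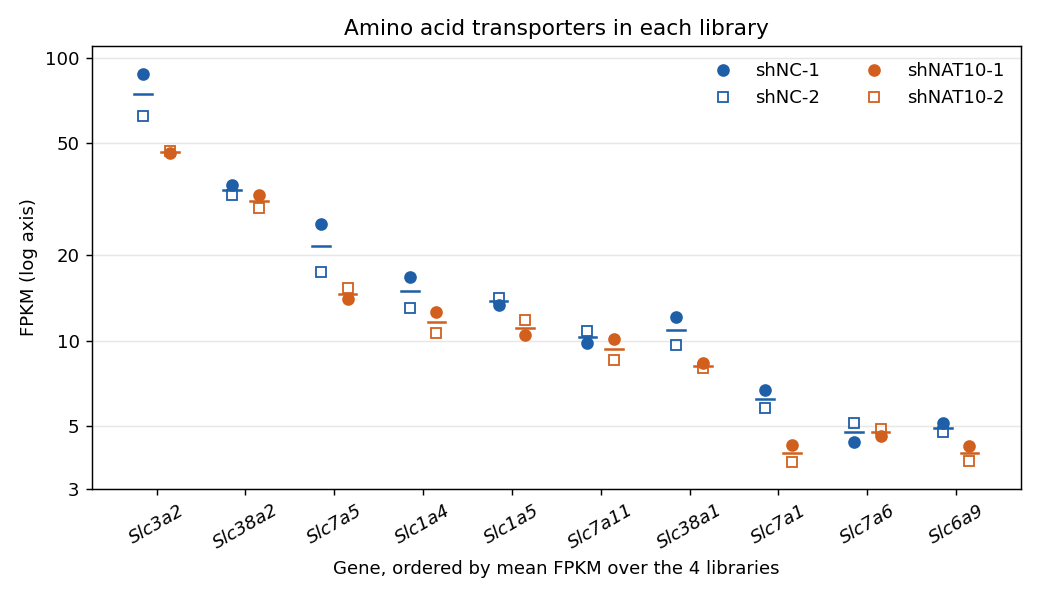
FPKM of the 10 transporters on a log axis, with a point for each library (blue for shNC, orange for shNAT10, filled circles for replicate 1 and open squares for replicate 2) and a short line at each group mean. *Slc3a2* sits at 87.3 and 62.1 FPKM in shNC and at 46.1 and 46.6 FPKM in shNAT10, while the points of *Slc7a6* and *Slc7a11* overlap between groups, and all levels are on the deposited scaling between libraries.

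After *Nat10* knockdown, 4 of the 10 transporters, *Slc3a2*, *Slc7a1*, *Slc38a1* and *Slc1a5*, were called lower and none higher, where 7.83% of all genes tested were called lower and 8.41% higher. The set was chosen with earlier results of these data known, so these counts describe it and do not test it. The median log2 fold change of the 10 was −0.33, against 0.01 over all genes tested. On the deposited scaling all 10 estimates lay below 0, as did 49.5% of all genes tested. That of *Slc7a6* was only −0.00097 and turned above 0 in 4 of 15 alternatives. In 7 of the 10 the knockdown libraries were both lower than either control, as in 24.1% of all genes tested, and in 0 of the 10 both were higher, as in 23.9% of all genes. At an adjusted p under 0.05, limma called none of the 10, at which level it called 0.437% of all genes in either direction. Limma-voom on the recovered fragments called *Slc3a2*, *Slc7a1*, *Slc7a5* and *Slc38a1* lower at that level, where the background was 3.64% lower and 4.23% higher. Scaling each library to the same total of recovered fragments, an alternative added after the data were seen, put the median of all genes at 0.38 and turned that of the transporters to 0.073, which was −0.31 relative to all genes. Under that scaling limma called 0 of the 10, with 1.55% of all genes called lower and 26.3% higher. Protein-coding genes held 50.01% and 58.8% of the recovered fragments in controls and 69.9% and 68.4% after knockdown, so such totals count different mixtures of RNA.

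The heavy chain gene *Slc3a2* lies on the minus strand of chromosome 19 (chr19:8706882-8723369). It measured 87.3 and 62.1 FPKM in controls and 46.1 and 46.6 FPKM after knockdown. Both knockdown libraries were alike and lay below both controls, and shNC-1 stood 0.49 above shNC-2 in log2 units. The log2 fold change was −0.67 ± 0.18 (SE, n = 2 per group), with a 95% confidence interval of −1.14 to −0.19 and an adjusted p of 0.205 by limma, from 10783 fragments in all. Without shNC-1 the log2 fold change was −0.42 and still called, and without shNC-2 it was −0.91. Without shNAT10-1 or shNAT10-2 it was −0.66 or −0.67 and no longer called. Limma-voom gave it an adjusted p of 0.000301, while the other alternatives gave 0.127 to 0.595. With total fragment scaling the log2 fold change was −0.26 and not called.

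*Slc7a5*, the LAT1 light chain for leucine and other large neutral amino acids, lies at chr8:121881150-121907694. It measured 25.8 and 17.5 FPKM in controls and 14.0 and 15.3 FPKM after knockdown. The groups did not overlap, but shNC-1 stood 0.56 above shNC-2 on the log2 scale, a gap as wide as that between the groups. The log2 fold change of −0.53 ± 0.21 missed the threshold (adjusted p = 0.310 by limma, 95% confidence interval −1.07 to 0.01) and ranged from −0.81 without shNC-2 to −0.25 without shNC-1. It was called in 4 of 15 alternatives, limma-voom among them with an adjusted p of 0.0175, against 0.212 to 0.707 in the others, and total fragment scaling put it at −0.13.

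The cystine light chain *Slc7a11* (chr3:49892526-50443614) measured 9.81 and 10.8 FPKM in controls and 10.1 and 8.53 FPKM after knockdown. The groups overlapped, and the log2 fold change was −0.15, with a 95% confidence interval of −0.50 to 0.19. *Slc7a6*, the y+LAT2 light chain that exchanges cationic for neutral amino acids, measured 4.40 and 5.11 FPKM in controls and 4.62 and 4.85 FPKM after knockdown, again with overlap. Its interval ran from −0.36 to 0.35 around an estimate of 0.00. Neither gene was called in any of the 15 alternatives.

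Heavy and light chains were also compared within each library, where scaling between libraries plays no part. *Slc3a2* FPKM divided by the summed FPKM of its 6 light chain partners (*Slc7a5*, *Slc7a6*, *Slc7a7*, *Slc7a8*, *Slc7a10* and *Slc7a11*) was 2.03 and 1.70 in controls and 1.47 and 1.497 after knockdown. The ratio was lower in both knockdown libraries, and with 2 libraries per group an exact two-sided permutation test cannot go below p = 0.3333. *Slc7a5* supplied 59.8% and 48.0% of the light chain sum in controls and 44.7% and 49.3% after knockdown, so here shNC-1 stood apart and the other libraries overlapped. *Slc7a11* supplied 22.8% and 29.8% in controls and 32.2% and 27.4% after knockdown.

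*Slc7a1*, the cationic transporter CAT1 on chromosome 5 (chr5:148327410-148399904), was called in 12 of 15 alternatives, more than any other of the 10. It measured 6.67 and 5.78 FPKM in controls and 4.28 and 3.72 FPKM after knockdown. The shNAT10 mean was 64.3% of the shNC mean, and the replicates of either group differed by 0.20 on the log2 scale. The log2 fold change was −0.62 ± 0.15 (SE, n = 2 per group), with an adjusted p of 0.167 by limma, 0.00140 by limma-voom and 0.0955 to 0.497 in the other alternatives. Without shNC-1 or without shNAT10-2 it was −0.52 and the call was lost, as it was under total fragment scaling, at −0.23.

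Of the SLC1 exchangers, *Slc1a5*, the glutamine carrier ASCT2 (chr7:16781340-16798274), measured 13.4 and 14.2 FPKM in controls and 10.5 and 11.8 FPKM after knockdown. It was called lower at −0.31 ± 0.11 in log2 fold change, with an adjusted p of 0.272 by limma. The call held without shNAT10-2 only among the 4 fits with a library left out, in which the log2 fold change ran from −0.39 to −0.22. *Slc1a4*, the alanine and serine carrier ASCT1 (chr11:20302180-20332713), measured 16.8 and 13.0 FPKM in controls and 12.6 and 10.6 FPKM after knockdown. The groups did not overlap, yet its log2 fold change of −0.35 ± 0.17 missed the threshold and ran from −0.54 without shNC-2 to −0.17 without shNC-1. It was called in 2 of 15 alternatives, limma-voom among them with an adjusted p of 0.122, against 0.269 to 0.851 in the others. *Slc1a5* exceeded *Slc1a4* in shNC-2 and shNAT10-2 and was below it in shNC-1 and shNAT10-1, with ratios of 0.798 and 1.09 in controls and 0.829 and 1.11 after knockdown. Under total fragment scaling both genes had estimates above 0, at 0.10 for *Slc1a5* and 0.051 for *Slc1a4*, both below the median of all genes.

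The sodium-coupled SLC38 carriers are neighbours on chromosome 15. *Slc38a1* (chr15:96571418-96642913) measured 12.1 and 9.67 FPKM in controls and 8.32 and 7.98 FPKM after knockdown. It was called lower, with a log2 fold change of −0.41 ± 0.14 and an adjusted p of 0.275 by limma, and the call held only without shNC-2 (−0.57) when libraries were left out, with −0.24 without shNC-1. Scaling to total fragments put it at −0.0042, not called. *Slc38a2* (chr15:96687392-96699730), the SNAT2 carrier whose mRNA is known to respond to amino acid shortage, measured 35.5 and 32.6 FPKM in controls and 32.7 and 29.5 FPKM after knockdown. Its groups overlapped and its log2 fold change was −0.13, with a 95% confidence interval of −0.40 to 0.13. The glycine transporter *Slc6a9* (chr4:117834506-117875198) measured 5.10 and 4.75 FPKM in controls and 4.25 and 3.76 FPKM after knockdown, without overlap, and its log2 fold change of −0.30 ± 0.13 missed the threshold. Genes on the other strand overlap *Slc6a9*, namely *Gm17114* at 1.79 to 2.97 FPKM and *B4galt2* and *Ccdc24*, each under 2 FPKM, and whether counting used strand is not given in the sources used here.

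The control libraries did not sit at the same level. In 7 of the 10 transporters shNC-1 was above shNC-2, by a median of 0.16 on the log2 scale over the 10, against 0.00 over all genes tested. Summed over the 10, FPKM came to 217 and 176 in controls and 147.5 and 143 after knockdown. Without shNC-1, which is the higher control, 1 of the 10 (*Slc3a2*) was called and the median was −0.24. Without shNC-2, 4 were called and the median was −0.44. Without shNAT10-1 only *Slc7a1* was called, and without shNAT10-2 only *Slc1a5*. The 8 genes commonly listed as ATF4 targets (all but *Slc7a6* and *Slc38a1*) had 3 called lower, where 7.83% of all genes were, and a median of −0.33, the same as the whole set. With total fragment scaling none of the 8 was called and their median was 0.073.

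**Figure D2:**
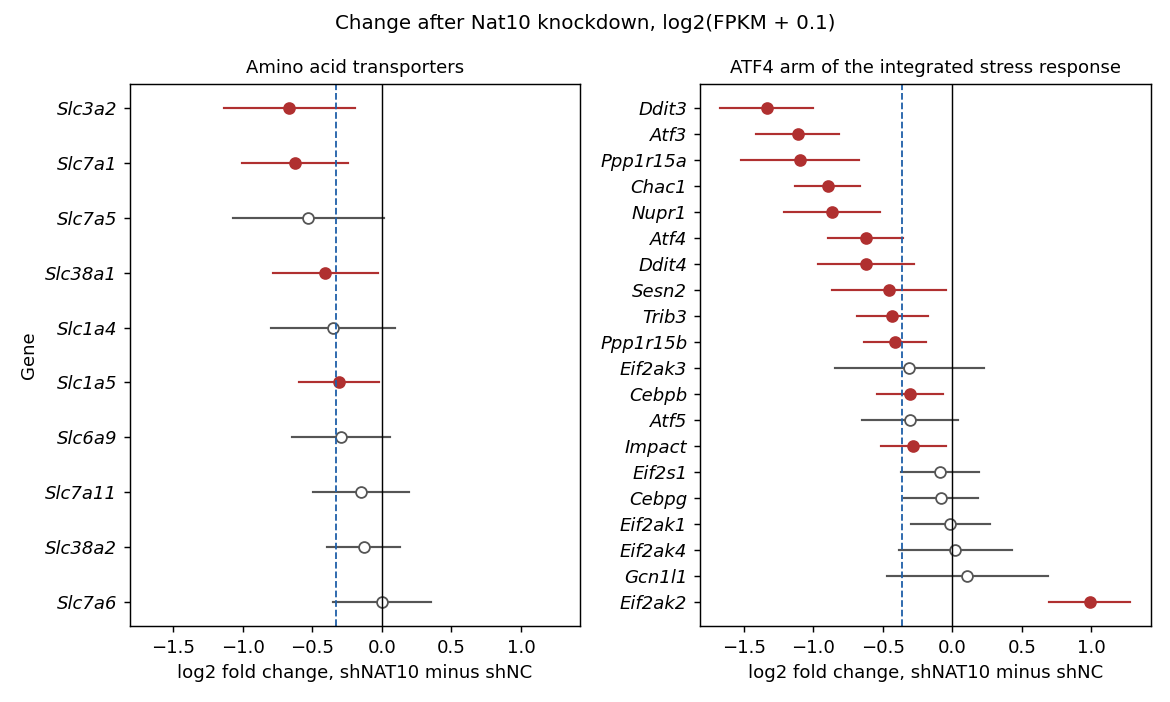
Log2 fold change, shNAT10 minus shNC, on log2(FPKM + 0.1) for the 10 transporters (left) and 20 genes of the ATF4 arm (right), with 95% confidence intervals from limma as bars. Filled red points passed a fold change over 1.2 with p of at most 0.05, and dashed lines mark the list medians of −0.33 and −0.36. Under total fragment scaling both medians move up with that of all genes. They reach 0.073 for the transporters and lie between −0.0038 and 0.090 for the ATF4 arm.

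Other carriers of the plasma membrane were mostly low. Of 33 further amino acid transporters, 10 were at 0 in all libraries, 13 passed the filter and 5 had a mean of at least 1 FPKM. The 10 transporters held 92.8% and 91.0% of the summed FPKM of both lists in controls and 90.6% and 90.9% after knockdown. *Slc6a20b*, a relative of the proline carrier SIT1, led the further list with 6.13 and 6.43 FPKM in controls and 5.81 and 5.14 FPKM after knockdown. The taurine transporter *Slc6a6* measured 3.14 and 2.91 FPKM in controls and 2.29 and 2.36 FPKM after knockdown, and the y+LAT1 light chain *Slc7a7* 1.67 and 1.83 FPKM against 1.56 and 1.48 FPKM. Limma called none of the 13 (0 higher, 0 lower), where 7.83% of all genes were called lower and 8.41% higher, with a median log2 fold change of −0.20. Limma-voom called 1 lower at an adjusted p under 0.05, where it called 3.64% of all genes lower and 4.23% higher. It was the cationic transporter *Slc7a2*, named after its values were seen, from only 32 and 21 fragments in controls and 9 and 9 after knockdown. Under total fragment scaling limma called 0 of the 13, beside 1.55% of all genes lower and 26.3% higher. The estimates were then 0.20 for *Slc6a20b*, 0.028 for *Slc6a6*, 0.19 for *Slc7a7* and −0.76 for *Slc7a2*.

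On the lysosomal membrane, 9 of 10 amino acid transporters passed the filter, 1 was called lower and 1 higher, and the median was 0.10, near the shares of all genes (7.83% lower, 8.41% higher). Of the 9, 2 were called higher and 1 lower under total fragment scaling, beside 26.3% and 1.55% of all genes. *Slc38a7*, a glutamine and asparagine exporter of the lysosome, fell from 11.7 and 12.1 FPKM in controls to 6.44 and 6.96 FPKM after knockdown. In log2 units the change was −0.82 ± 0.10 (adjusted p = 0.0724 by limma). The call held whichever library was left out, and the estimate was −0.42 under total fragment scaling. *Mfsd12*, which moves cysteine into lysosomes, was called higher, at 13.8 and 9.65 FPKM in controls and 16.8 and 18.2 FPKM after knockdown. Its call held without shNC-1 only among the fits with a library left out. *Slc15a4*, a carrier of histidine and dipeptides, measured 4.90 and 4.84 FPKM in controls and 4.18 and 3.66 FPKM after knockdown and was not called.

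Of 20 genes of the ATF4 arm of the integrated stress response, 12 were called lower, 1 higher and 7 not, where 7.83% of all genes were called lower and 8.41% higher. This list, too, was chosen with earlier results of these data known. The median log2 fold change was −0.36. Under total fragment scaling 5 of the 20 were called lower and 3 higher, where the shares of all genes were 1.55% and 26.3%. The middle of the 20 estimates then lay between *Ppp1r15b* at −0.0038 and *Eif2ak3* at 0.090. Of the 13 calls, 8 held with each library left out in turn, among them those of *Atf4*, *Ddit3*, *Chac1*, *Atf3*, *Ppp1r15a* and *Eif2ak2*. *Atf4* itself measured 221 and 201 FPKM in controls and 144 and 130 FPKM after knockdown, or −0.62 ± 0.10 in log2 fold change with an adjusted p of 0.103 by limma. *Trib3*, a pseudokinase that restrains ATF4, measured 95.3 and 99.7 FPKM against 68.0 and 76.9 FPKM, and *Cebpb* 85.0 and 76.4 FPKM against 65.5 and 64.8 FPKM, both called lower. The call of *Trib3* was lost without either shNC library, and that of *Cebpb* held without shNC-2 only. Under total fragment scaling the estimates were −0.22 for *Atf4*, −0.023 for *Trib3* and 0.10 for *Cebpb*.

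*Ddit3*, the CHOP transcription factor, fell from 39.5 and 48.4 FPKM in controls to 16.9 and 17.6 FPKM after knockdown, with a log2 fold change of −1.34 ± 0.13 and an adjusted p of 0.0489 by limma, the 1 gene of the fixed lists under 0.05. *Chac1*, which degrades glutathione, measured 26.7 and 26.6 FPKM against 14.8 and 13.8 FPKM. *Atf3* measured 7.63 and 7.74 FPKM against 3.40 and 3.60 FPKM, and *Ppp1r15a*, the phosphatase subunit that reverses eIF2 phosphorylation, 31.3 and 26.6 FPKM against 11.9 and 15.2 FPKM. Under total fragment scaling these 4 kept estimates below 0, from −0.93 for *Ddit3* to −0.49 for *Chac1*. *Eif2ak2*, the eIF2 kinase PKR that senses double-stranded RNA, rose from 5.31 and 4.84 FPKM to 10.4 and 9.96 FPKM, with a log2 fold change of 0.99 ± 0.11.

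Of 27 genes by which mTORC1 senses amino acids, all of which passed the filter, 2 were called lower and 1 higher. Over all genes tested 7.83% were called lower and 8.41% higher, so these counts were near or below the background. *Sesn2*, a further sestrin, was not among the 27 but counted with the ATF4 arm, where it was called lower. It measured 8.01 and 6.57 FPKM in controls and 4.91 and 5.67 FPKM after knockdown, with a log2 fold change of −0.45 ± 0.16, or −0.052 under total fragment scaling. The median log2 fold change of the 27 was −0.06. The most abundant were *Lamtor4*, *Rraga* and *Seh1l*. *Lamtor4*, of the Ragulator scaffold, measured 32.0 and 31.8 FPKM in controls and 34.3 and 36.4 FPKM after knockdown, and *Seh1l*, of the GATOR2 complex, 21.5 and 26.3 FPKM against 22.3 and 22.8 FPKM. The GTPase *Rraga* was called lower, at 23.0 and 24.6 FPKM against 20.2 and 16.8 FPKM, as was *Nprl2* of the GATOR1 complex. *Sesn3*, of the sestrin family, was called higher at 1.39 and 1.197 FPKM against 2.05 and 1.85 FPKM. None of these 3 calls held in all fits with a library left out, and under total fragment scaling 9 of the 27 were called higher and 0 lower, beside 26.3% and 1.55% of all genes.

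Of 15 genes of cystine, glutathione and glutamine use, 13 passed the filter, 2 were called lower and 2 higher, where 7.83% of all genes were called lower and 8.41% higher, and the median was 0.07. *Cth*, which makes cysteine from cystathionine, fell from 3.17 and 3.05 FPKM in controls to 0.771 and 1.45 FPKM after knockdown (log2 fold change −1.47 ± 0.32), a call that was lost without either shNC library. *Got1*, the cytosolic aspartate aminotransferase, measured 9.22 and 12.0 FPKM against 5.96 and 5.93 FPKM and was called lower, though not without either shNAT10 library. *Gclm*, the modifier subunit for glutathione synthesis, was called higher at 3.82 and 3.82 FPKM against 5.96 and 5.19 FPKM, and held its call without shNAT10-2 only. The most abundant genes of the list, *Gpx4* and *Glud1*, were not called, with log2 fold changes of −0.06 and 0.03. Under total fragment scaling 7 of the 13 were called higher and 1 lower, beside the same 26.3% and 1.55% of all genes.

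Of 7 regulators other than ATF4 that act on *Slc7a11* or *Slc7a5*, 6 passed the filter, 1 was called lower and 1 higher, and the median was −0.05. The shares of all genes were again 7.83% lower and 8.41% higher. *Bmi1*, a Polycomb subunit, rose from 16.9 and 17.1 FPKM in controls to 24.6 and 22.4 FPKM after knockdown, and its call held with each library left out. *Myc* was called lower, at 13.1 and 13.9 FPKM against 11.4 and 9.27 FPKM, a call that held without shNAT10-1 only. *Bap1*, a deubiquitinase, measured 12.6 and 11.2 FPKM against 10.2 and 12.6 FPKM and was not called. Under total fragment scaling 3 of the 6 were called higher and 0 lower, and *Myc* was at 0.018. Over the 88 genes tested on these lists together, markers and the 10 transporters left out, 18 were called lower and 6 higher on the deposited scaling. That scaling called 7.83% of all genes lower and 8.41% higher. The ATF4 arm alone held 12 of the 18 lower calls and 1 of the 6 higher. Under total fragment scaling 7 of the 88 were called lower and 24 higher, of which the ATF4 arm held 5 and 3. That scaling called 1.55% of all genes lower and 26.3% higher.

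Promoter sequences were read for what the transporters share in position and sequence. RefSeq promoters of GRCm38.p6, from 250 bases before to 50 bases after a start, matched 7 of the 10 genes with 11 windows, while *Slc7a5*, *Slc1a5* and *Slc38a1* had no entry. The letters TGATGNAA, the C/EBP-ATF composite element through which ATF4 acts, were searched on both strands and occurred in 3.97% of 32851 promoters and in 4.51% of the 27025 genes they belong to. Among the 7 genes they occurred in 2, *Slc7a11* and *Slc1a4*. *Slc7a11* held 2 matches, 66 and 47 bases before its start and facing in opposite directions, and at least 2 matches occurred in 0.0700% of all promoters. The *Slc1a4* match began 4 bases before its start. Of the 18 genes of the ATF4 arm with a promoter, *Atf3*, *Chac1*, *Nupr1* and *Trib3* held a match.

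The antioxidant response element core, TGACNNNGC, through which NRF2 acts, occurred in 12.4% of all promoters and 14.0% of all genes, and in the promoters of *Slc7a1*, *Slc7a6*, *Slc38a2* and *Slc6a9*. No window of the 7 genes held both motifs. The called gene *Slc3a2* held neither motif in its window (chr19:8713848-8714147), which lies inside the annotated gene and not at its outermost start. The *Slc6a9* windows with a match (chr4:117849100-117849399 and chr4:117855297-117855596) also lie inside the annotated gene. A match is a description of these letters and not of binding. Stretches that end at the start, or 4 bases past it in *Slc1a4*, are shown for the 2 genes with a composite element and for *Slc7a1*, the called gene with a match, 5′ to 3′ on the gene's own strand, which is the minus strand in each, with the matched letters in capitals (TGATGNAA in the first 2, TGACNNNGC in *Slc7a1*). They span chr3:50443614-50443763 for *Slc7a11*, chr11:20332710-20332863 for *Slc1a4* and chr5:148399905-148400004 for *Slc7a1*.
Slc7a11: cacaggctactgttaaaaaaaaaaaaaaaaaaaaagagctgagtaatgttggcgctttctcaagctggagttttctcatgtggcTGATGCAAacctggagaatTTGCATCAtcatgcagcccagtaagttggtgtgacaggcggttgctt
Slc1a4: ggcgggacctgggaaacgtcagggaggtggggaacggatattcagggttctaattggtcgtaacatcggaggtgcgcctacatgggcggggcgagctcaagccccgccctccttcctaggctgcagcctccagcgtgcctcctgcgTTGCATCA
Slc7a1: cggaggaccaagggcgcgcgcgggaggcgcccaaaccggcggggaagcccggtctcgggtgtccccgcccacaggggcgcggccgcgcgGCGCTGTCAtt

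The genes whose profile over the 4 libraries was most like that of the 4 called transporters were sought by Euclidean distance to their mean centred log2(FPKM + 0.1), among 9704 other protein-coding genes with a mean of at least 1 FPKM. Among the nearest 5 were *Cpox*, *Slc25a15*, *Gpr108* and *Mov10*, with distances of 0.0234 to 0.0358. *Slc25a15*, the ornithine carrier of mitochondria, measured 5.73 and 4.77 FPKM in controls and 3.76 and 3.65 FPKM after knockdown. Each of these 4 was highest in shNC-1 and had shNAT10 values close to each other, the shape by which they were chosen.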

How the data were processed

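RNA of 2 shNC and 2 shNAT10 libraries was analysed, grouped by sample title. The authors aligned reads with HISAT2 and deposited FPKM for 53465 genes. The paper's methods describe rRNA depletion, the labels mRNA isolation, and the labels name mm10. The annotation is not given in the sources used here. A second deposited table, with the authors' log2 fold changes and p-values beside the same FPKM, was not used. The 20116 genes whose FPKM averaged at least 0.1 were compared on log2(FPKM + 0.1), which understates changes of low genes, by limma 3.58.1 with a mean-variance trend in R 4.3.3, two-sided, with Benjamini-Hochberg adjustment over all genes tested. P-values measure the spread between these libraries. Fragments were recovered with GENCODE M21 exon lengths: of values below 50 fragments, 96.0% to 96.6% were whole to within 0.02, and 3 fragments on 1 kb correspond to 0.196 to 0.255 FPKM. Coordinates are those of GENCODE M21 on GRCm38. For *Slc38a1* and *Slc38a2* fragments were approximate. The deposited FPKM already carried a median-ratio scaling between libraries. Named genes were all 10 transporters, *Nat10*, the called genes and the 3 most abundant of each list (beyond 8, the 5 called genes with the smallest p), and the 5 most similar genes. Of these, 2 genes are not reported here. Members and lists were chosen with earlier results of these data known. Alternatives were other pseudocounts, filters and scalings, leaving out each library, no trend, a block for the replicate number, limma-voom and a call by adjusted p. Python 3.11.15 with pandas 2.3.3 and matplotlib 3.10.9 did the rest.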

Additional observations from a re-analysis of the deposited data

How the results depend on the processing

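The count of 4 called transporters became 1 without the variance trend and 0 with a call by adjusted p under 0.05 in limma, and it ranged from 1 to 4 with a library left out. It stayed within 3 to 6 under the remaining alternatives, other than total fragment scaling. With the replicate number as a block 6 were called, although the numbers do not pair the samples (correlation of same-numbered deviations 0.0071 over 20116 genes). Calls on the other lists went from 24 to 1 at an adjusted p under 0.05 in limma and to 19 at that level in limma-voom. The median log2 fold change of the transporters ranged from −0.44 to −0.24 with a library left out. That of *Nat10* ranged from −1.35 to −0.83, not called without either shNAT10 library. With total fragment scaling *Nat10* was at −0.69 and still called.

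Scaling to total recovered fragments, chosen after seeing the data, called 0 transporters and turned the median to 0.073. The log2 fold changes turned to 0.25 for *Slc7a11*, 0.40 for *Slc7a6*, 0.051 for *Slc1a4*, 0.10 for *Slc1a5*, 0.27 for *Slc38a2* and 0.10 for *Slc6a9*. This scaling raised the estimates of the 10 transporters by a like amount. It raised those of genes with low FPKM, such as *Slc7a2* and *Gfra1*, by less. *Slc7a6* was also above 0 by limma-voom (0.00032) and ranged from −0.11 to 0.10 with a library left out. Where an arm keeps 1 library, limma assumes that it varies like the other group. Other causes were not tested. Each of the 10 transporters had at least 1118 recovered fragments over the 4 libraries.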
